A study of Mus musculus with 10 samples.

Results

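Chromatin accessibility was described at 8 genes of the TNF receptor superfamily and its ligand family that act in T cell costimulation: the receptor genes Tnfrsf4, Tnfrsf18, Tnfrsf9, Tnfrsf1b and Cd27 and the ligand genes Tnfsf11, Tnfsf8 and Cd40lg. A region belonged to a locus if it overlapped the gene body or lay within 50 kb of the gene's start, which gave 152 of the 94823 regions of the series. The loci of Tnfrsf4 and Tnfrsf18 are neighbours and shared 10 regions, so that the 8 loci held 10, 13, 17, 44 and 30 regions at the receptors and 12, 11 and 25 at the ligands. The study asked by ATAC-seq, in which a transposase cuts accessible DNA and leaves sequencing adapters there, how chromatin differs between subsets of thymic invariant natural killer T (iNKT) cells and how weaker T cell receptor signalling changes it. The iNKT1 cells were sorted as CD27+ CD122+ and the iNKT2 cells as CD27+ CD122-, with 50000 cells per library, from age-matched mice of 8 to 10 weeks. The 4 groups were BALB/c iNKT1 (n = 2 libraries) and BALB/c iNKT2 (n = 3) from wild-type mice, and SKG iNKT1 (n = 2) and SKG iNKT2 (n = 3) from SKG mice, which are BALB/c mice with a hypomorphic mutation of Zap70, the kinase that carries the T cell receptor signal. The mutation is present in every cell of the SKG mouse from development onward, and CD27, the product of a member gene, was part of the gate of both subsets.

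Receptors of this superfamily sit in the cell membrane and bind ligands of the TNF family that are usually carried by another cell. OX40 (Tnfrsf4), GITR (Tnfrsf18), 4-1BB (Tnfrsf9), TNFR2 (Tnfrsf1b) and CD27 recruit TRAF adapters and activate NF-kB after T cell receptor engagement, and OX40 and GITR are well known from regulatory and activated T cells. RANKL (Tnfsf11), CD30 ligand (Tnfsf8) and CD40 ligand (Cd40lg) are made by activated T cells. In the thymus, RANKL and CD40 ligand from developing T cells support the medullary epithelium.

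Sequences of 6 regions that carry main differences are printed here, each being the reference sequence of the plus strand in the GRCm38 (mm10) build, which derives from another mouse strain than BALB/c. The first is the stretch before the start of Tnfrsf4, the promoter that differed most between subsets. The second and the last are distal regions that were far higher or lower in iNKT2, and the remaining 3 were lower in SKG. Capitals mark matches, on either strand, to the letters TGGAAA (NFAT), GNGTGGGNG (Egr), TGANTCA (AP-1), TGTGGT (Runx), GGTGTGA (T-box) and CAGGAAG (ETS); GGGANTTNC (NF-kB) and CTTTGAT (Tcf) were searched as well and had no match in these stretches.
Tnfrsf4 promoter, chr4:156013611-156013842: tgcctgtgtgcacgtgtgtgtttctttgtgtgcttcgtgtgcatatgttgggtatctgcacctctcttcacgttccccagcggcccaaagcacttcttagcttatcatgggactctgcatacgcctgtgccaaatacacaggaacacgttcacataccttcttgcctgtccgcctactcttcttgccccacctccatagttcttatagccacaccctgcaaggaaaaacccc
Tnfrsf9 upstream region, chr4:150903151-150903450: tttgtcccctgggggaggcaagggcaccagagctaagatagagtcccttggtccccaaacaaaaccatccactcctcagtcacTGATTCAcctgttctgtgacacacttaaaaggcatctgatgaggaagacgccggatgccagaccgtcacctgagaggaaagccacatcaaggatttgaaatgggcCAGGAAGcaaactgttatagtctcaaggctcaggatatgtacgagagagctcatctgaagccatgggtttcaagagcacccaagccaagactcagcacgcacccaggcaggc
Tnfrsf9 region within Camta1, chr4:150951131-150951430: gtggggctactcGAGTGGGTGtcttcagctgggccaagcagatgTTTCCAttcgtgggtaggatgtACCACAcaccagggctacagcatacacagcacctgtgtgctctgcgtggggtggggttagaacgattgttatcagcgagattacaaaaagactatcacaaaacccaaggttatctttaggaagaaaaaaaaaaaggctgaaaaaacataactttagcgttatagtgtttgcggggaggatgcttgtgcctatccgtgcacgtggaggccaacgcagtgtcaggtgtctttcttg
Tnfsf11 upstream region, chr14:78351573-78351872: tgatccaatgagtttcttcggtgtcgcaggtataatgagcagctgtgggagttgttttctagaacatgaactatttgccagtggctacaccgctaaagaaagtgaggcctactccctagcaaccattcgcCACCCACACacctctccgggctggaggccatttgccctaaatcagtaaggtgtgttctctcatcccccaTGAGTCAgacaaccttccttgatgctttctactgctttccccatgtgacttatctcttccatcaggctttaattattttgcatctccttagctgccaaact
Tnfsf8 upstream region, chr4:63863073-63863372: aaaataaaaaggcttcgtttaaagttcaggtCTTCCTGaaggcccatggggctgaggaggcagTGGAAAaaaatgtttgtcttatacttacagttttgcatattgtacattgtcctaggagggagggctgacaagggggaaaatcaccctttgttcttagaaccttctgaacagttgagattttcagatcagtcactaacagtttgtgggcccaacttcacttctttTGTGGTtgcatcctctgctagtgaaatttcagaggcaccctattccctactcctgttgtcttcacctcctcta
Cd40lg upstream region, chrX:57184862-57185161: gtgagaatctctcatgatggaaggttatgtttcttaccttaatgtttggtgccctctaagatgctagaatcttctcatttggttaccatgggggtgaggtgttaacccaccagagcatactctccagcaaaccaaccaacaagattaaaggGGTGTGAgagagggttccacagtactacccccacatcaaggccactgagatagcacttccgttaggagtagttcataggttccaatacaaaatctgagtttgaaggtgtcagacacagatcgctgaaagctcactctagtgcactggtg
The Tnfrsf4 stretch held none of the 8 motifs. The AP-1 letters match both strands at the same place. Over all 94823 regions, 31.3% held the NFAT letters, 18.0% Egr, 5.89% NF-kB, 13.8% AP-1, 36.5% Runx, 7.47% T-box, 27.7% ETS and 7.57% Tcf, and over the 152 member regions the shares were 36.8%, 15.8%, 6.58%, 16.4%, 41.4%, 14.5%, 34.2% and 7.89%. A match describes letters and is not a bound site.

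The libraries held 14988590 to 36342635 insertions inside the regions, with 40 to 120 insertions in the median region, and values below are CPM, insertion counts scaled to a common depth with edgeR's TMM factors. Promoters of all 4 T cell markers were open in every library, with summed levels of 67.6 to 109 CPM, while none of 4 B cell and none of 4 double-positive thymocyte markers had a promoter region and 1 of 4 myeloid markers did. The 4 iNKT1 markers summed to 196 to 199 CPM in BALB/c iNKT1 and 213 to 220 in SKG iNKT1, against 44.4 to 52.6 and 43.8 to 63.8 in the iNKT2 groups. The 4 iNKT2 markers summed to 49.0 to 71.8 CPM over the libraries, the groups overlapped, and none was called between subsets. Single markers differed in direction below 4-fold. Il17rb rose in iNKT2 by log2 1.08 (edgeR, adjusted p = 7.05e-05) in BALB/c and 1.44 (1.10e-05) in SKG. Il4 changed by -0.63 (0.182) in BALB/c and -1.49 (0.00635) in SKG. Zbtb16 and Gata3 did not pass the adjusted p threshold in either genotype. The iNKT17 markers Il23r, Ccr6 and Il17a were called higher in iNKT2 of both genotypes. Their sum was 0.269 to 0.397 CPM in BALB/c iNKT1, 0.128 to 0.578 in SKG iNKT1, 8.31 to 12.4 in BALB/c iNKT2 and 6.33 to 8.45 in SKG iNKT2. Between genotypes in iNKT2 the 3 did not move together: SKG against BALB/c gave a log2 change of -2.32 at Il17a (called lower), 1.51 at Ccr6 (adjusted p = 0.00722) and -0.23 at Il23r (adjusted p = 0.577). The iNKT17 markers thus moved with every result in which a member region was higher in iNKT2, and their part in these was not tested. In bulk libraries, fewer cells with an open region and less opening per cell cannot be told apart.

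The first comparison asked where the costimulator loci differed between iNKT1 and iNKT2. In BALB/c, 11 of the 152 regions were called higher in iNKT2 (7.24%) and 15 lower (9.87%), where all regions of the series gave 15.5% higher and 6.36% lower. In SKG, 11 were called higher (7.24%) and 14 lower (9.21%), against 10.2% and 6.96% of all regions. A call required an adjusted p under 0.01 (edgeR quasi-likelihood test, Benjamini-Hochberg over all 94823 regions) and a change of at least 4-fold. Changes are given as log2 change ± SE from that fit throughout. The median log2 change over the members was -0.42 in BALB/c and -0.22 in SKG, where the median over all regions was 0.06 and 0.14. The share of members called lower was thus somewhat above the share of all regions and the share called higher below it, and no test of the list was made. Scaling by library totals moved the median of all regions to 0.34 in BALB/c and 0.32 in SKG, and the members' split in BALB/c to 13 higher and 13 lower. After quantile normalization (voom) 8 were higher and 23 lower in BALB/c and 7 and 16 in SKG, where all regions gave 9.54% higher and 9.46% lower in BALB/c and 4.48% and 7.39% in SKG. The lower calls of all regions in BALB/c thus rose as well under this setting. With TMM, voom gave 7 and 14 members in SKG.

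The comparisons in the 2 genotypes contrasted different libraries. Both came from 1 fit over all 10 libraries with a shared estimate of the spread, so their calls are not independent. Of the 11 regions called higher in BALB/c iNKT2, 8 were also called higher in SKG, where 11 were called, and of the 15 called lower, 12 were also called lower in SKG, of 14 there. Among all regions of the series, 49.3% of those called higher in BALB/c and 76.0% of those called lower were called the same way in SKG. Regions called in any contrast numbered 34, of which 1 held the start of a member, 6 lay in a member's body, 11 overlapped another gene and 16 lay between genes. Among all 152, 8 held a member's start, 46 lay in a member's body, 49 overlapped another gene and 49 lay between genes, so that calls and members alike lay mostly away from the members' own starts. By nearest protein-coding start, 104 of the 152 regions belonged to a member. Among these 104, 8 were called higher and 8 lower in each genotype.

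**Figure D1:**
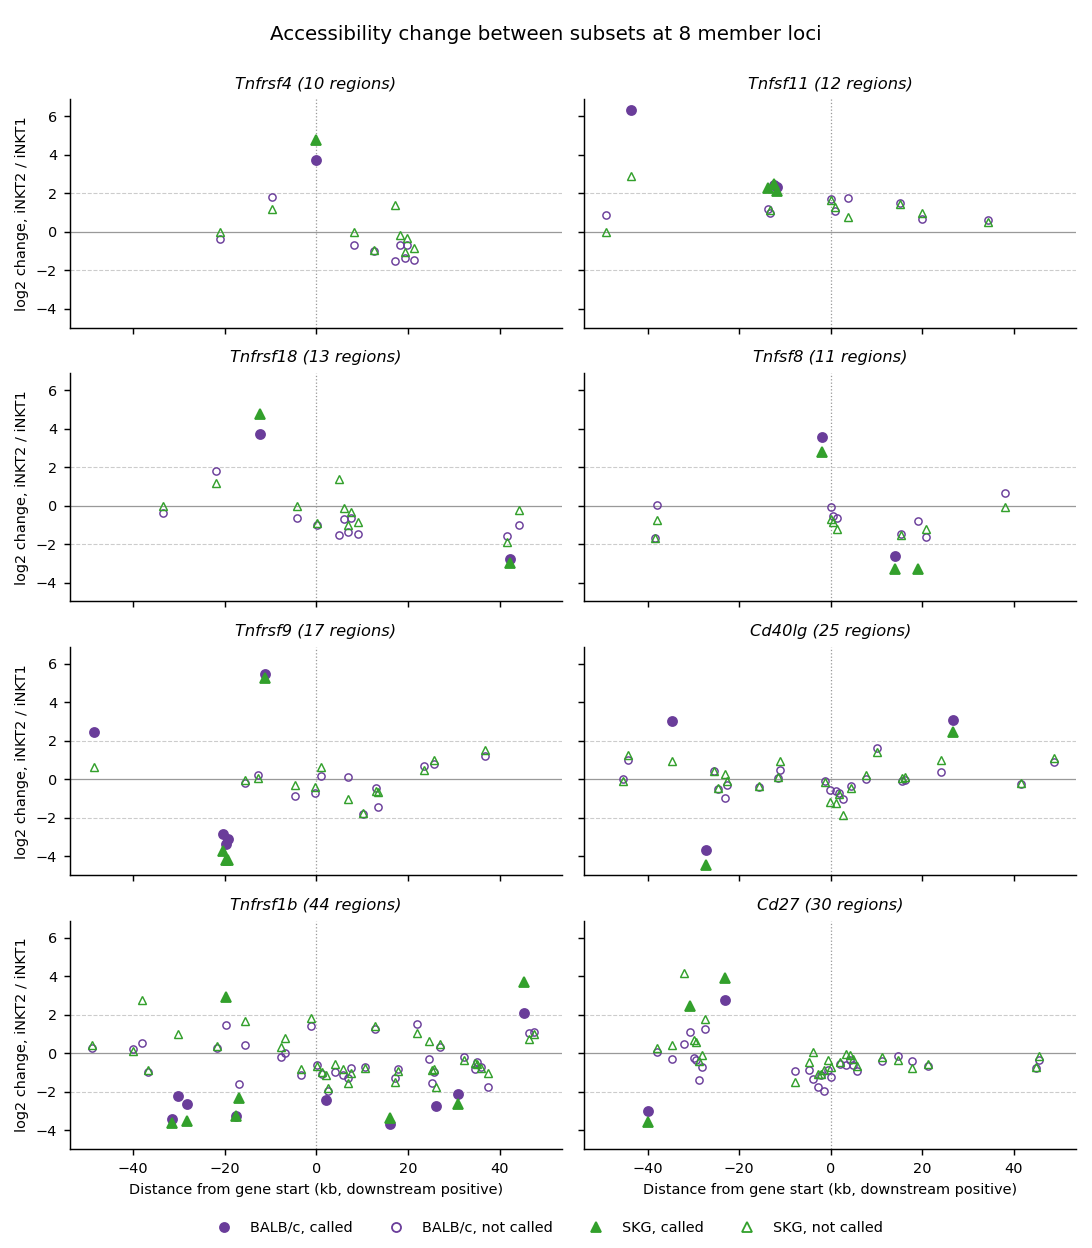
The log2 change from iNKT1 to iNKT2 is plotted against the signed distance of each region from the start of its member gene in kb, for BALB/c and SKG, with called regions marked. In both genotypes the called regions scatter over the 50 kb on either side, and the promoter of Tnfrsf4 is the only member start among them.

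Tnfrsf4, which encodes OX40, had the promoter that changed most. At chr4:156013611-156014027, the region that holds its start on the plus strand, the levels were 0.866 and 0.705 CPM in BALB/c iNKT1, 0.193 and 0.449 in SKG iNKT1, 10.3, 12.7 and 8.82 in BALB/c iNKT2, and 10.6, 6.34 and 9.84 in SKG iNKT2. Every iNKT1 library lay below 1 CPM and every iNKT2 library above 6, with no overlap. The log2 change in iNKT2 was 3.73 ± 0.32 (adjusted p = 1.49e-07) in BALB/c and 4.78 ± 0.40 (adjusted p = 1.98e-07) in SKG, both called. Both calls held under every alternative and without any library. Between genotypes the promoter did not pass, with -1.30 ± 0.53 (adjusted p = 0.205) in iNKT1 and -0.25 ± 0.22 (adjusted p = 0.432) in iNKT2. The stretch printed above ends at the base before the start.

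The neighbouring region 9603 bp upstream rose in iNKT2 by less than 4-fold, with log2 changes of 1.80 ± 0.21 (adjusted p = 3.29e-06) in BALB/c and 1.18 ± 0.21 (adjusted p = 2.19e-04) in SKG. The region with the most insertions in the pair of loci, chr4:156021301-156022715, lies between Tnfrsf4 and Tnfrsf18, where it overlaps an exon of Gm16008, a noncoding gene on the opposite strand, 4156 bp before the start of Tnfrsf18. It held 95.8 and 99.8 CPM in BALB/c iNKT1, 81.1 and 97 in SKG iNKT1, 68.1, 63.6 and 52.4 in BALB/c iNKT2, and 103, 73.1 and 85.8 in SKG iNKT2. BALB/c iNKT2 was the lowest group, and its libraries did not overlap the others, with a log2 change of -0.67 ± 0.15 (adjusted p = 0.00146) between subsets in BALB/c and 0.51 ± 0.14 (adjusted p = 0.015) between genotypes in iNKT2.

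Tnfrsf18, which encodes GITR, had a promoter that moved the other way. At chr4:156025888-156026696 the levels were 22.8 and 23.4 CPM in BALB/c iNKT1, 26.8 and 24.8 in SKG iNKT1, 13.3, 11.4 and 9.4 in BALB/c iNKT2, and 20.03, 9.37 and 10.7 in SKG iNKT2. The iNKT1 libraries were higher than every iNKT2 library, with SKG iNKT2 replicate 1 closest to them. The log2 change was -1.02 ± 0.25 (adjusted p = 0.00207) in BALB/c and -0.93 ± 0.25 (adjusted p = 0.00591) in SKG, past the p threshold and below 4-fold. A distal region at chr4:156068209-156068644, 42262 bp downstream of the Tnfrsf18 start and nearer to the start of Ttll10, held 9.44 and 10.5 CPM in BALB/c iNKT1, 8.87 and 12.1 in SKG iNKT1, 2.48, 1.19 and 0.577 in BALB/c iNKT2, and 1.81, 0.918 and 1.15 in SKG iNKT2. The groups of the 2 subsets did not overlap. It was called lower in iNKT2 of both genotypes, with -2.79 ± 0.37 (adjusted p = 1.17e-05) and -2.96 ± 0.39 (adjusted p = 1.53e-05).

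The region beyond the end of Tnfrsf18, chr4:156030577-156031389, in an intron of Gm16008 and 4819 bp after the Tnfrsf18 start, was the only member region whose genotype change was called as different between subsets. It held 16.6 and 28.2 CPM in BALB/c iNKT1, 9.77 and 9.49 in SKG iNKT1, 10.3, 7.62 and 4.95 in BALB/c iNKT2, and 31.6, 20.6 and 22.6 in SKG iNKT2. In iNKT1 the SKG libraries were the lower ones and in iNKT2 they were the higher ones, with no overlap within either subset. The genotype change was -1.21 ± 0.31 (adjusted p = 0.0322) in iNKT1 and 1.71 ± 0.25 (adjusted p = 1.49e-04) in iNKT2. The interaction, the second minus the first, was 2.92 ± 0.40 (adjusted p = 0.00142). Between subsets the region fell in BALB/c by 1.54 ± 0.27 and rose in SKG by 1.38 ± 0.29 on the log2 scale. The interaction gave 1 member region called higher and 0 lower, 0.658% and 0%, where all regions gave 0.189% higher and 0.341% lower, and 26 members (17.1%) had an unadjusted p under 0.05, against 19.8% of all regions. It was no longer called without BALB/c iNKT1 replicate 2 (log2 2.49, adjusted p = 0.018), SKG iNKT1 replicate 1 (2.94, 0.022) or SKG iNKT1 replicate 2 (2.90, 0.019), where the difference kept its direction. DESeq2 called 2 members higher and 1 lower in the interaction. It called more of all regions too, 302 higher and 1090 lower, against 179 and 323 with edgeR.

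Tnfrsf9, which encodes 4-1BB, shares its promoter region with the start of Park7 on the other strand. At chr4:150913768-150914819 the levels were 62.5 and 67.4 CPM in BALB/c iNKT1, 64.5 and 62.7 in SKG iNKT1, 37.6, 38.8 and 43.8 in BALB/c iNKT2, and 51.6, 45.4 and 50.4 in SKG iNKT2. All iNKT2 libraries were lower than all iNKT1 libraries, with log2 changes of -0.70 ± 0.12 (adjusted p = 1.62e-04) in BALB/c and -0.37 ± 0.13 (adjusted p = 0.022), not past the threshold, in SKG. The region with the most insertions here, chr4:150923960-150925360, overlaps an untranslated part of Tnfrsf9 and an intron of Camta1. It held 98.1 and 107 CPM in BALB/c iNKT1, 77.1 and 88.3 in SKG iNKT1, 31.6, 28.6 and 29.1 in BALB/c iNKT2, and 33.5, 20.9 and 20.2 in SKG iNKT2. Here every iNKT1 library was more than 2-fold above every iNKT2 library, with log2 changes of -1.78 ± 0.18 (adjusted p = 6.95e-07) and -1.72 ± 0.18 (adjusted p = 1.54e-06).

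The region with the smallest p among those called higher at this locus was chr4:150903084-150903517, 11262 bp upstream in an intron of Park7. It held 0.329 and 0.309 CPM in BALB/c iNKT1, 0.128 and 0.321 in SKG iNKT1, 13.1, 15.4 and 14.4 in BALB/c iNKT2, and 9.51, 7.81 and 9.44 in SKG iNKT2. All iNKT1 libraries were below 0.4 CPM and all iNKT2 libraries above 7, and the BALB/c iNKT2 libraries lay above the SKG ones. The changes were 5.46 ± 0.29 (adjusted p = 4.29e-09) in BALB/c and 5.28 ± 0.34 (adjusted p = 2.02e-08) in SKG. In iNKT2, SKG was lower, with a log2 change of -0.68 ± 0.17 (adjusted p = 0.00809). The reverse pattern stood at chr4:150894450-150894971, 19852 bp upstream and nearer to the start of Park7, with 21.5 and 19 CPM in BALB/c iNKT1, 23 and 24.2 in SKG iNKT1, 2.29, 1.72 and 1.9 in BALB/c iNKT2, and 1.57, 1.38 and 0.674 in SKG iNKT2. Each iNKT2 library was below 3 CPM and each iNKT1 library near 20. The changes were -3.36 ± 0.22 (adjusted p = 1.97e-08) and -4.20 ± 0.24 (adjusted p = 1.03e-08). Its neighbours on either side, 20327 and 19243 bp upstream, were called lower in both genotypes as well, which made up the 3 lower calls of the locus. The second region called higher in BALB/c, 48570 bp upstream within Errfi1, averaged 0.214 CPM in iNKT1 and 1.12 in iNKT2. Its call of 2.44 ± 0.67 (adjusted p = 0.00494) was lost without BALB/c iNKT1 replicate 1 (log2 1.88, adjusted p = 0.086), BALB/c iNKT1 replicate 2 (3.17, 0.012) or BALB/c iNKT2 replicate 3 (2.48, 0.012), and with quantile normalization or floor subtraction.

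Tnfrsf1b, which encodes TNFR2, had the locus with the most regions and the most lower calls, 8 of 44 in BALB/c and 6 in SKG against 1 and 2 higher. All regions gave 6.36% lower and 15.5% higher in BALB/c, and 6.96% and 10.2% in SKG. A locus with more regions can hold more calls, and some of these lower calls lie inside Tnfrsf8. Its promoter at chr4:145246437-145247094 held 48.9 and 49.2 CPM in BALB/c iNKT1, 51.5 and 52.1 in SKG iNKT1, 34.4, 29.3 and 33.8 in BALB/c iNKT2, and 34.5, 33.5 and 29.3 in SKG iNKT2. The iNKT2 libraries were lower in both genotypes, with -0.59 ± 0.13 (adjusted p = 8.15e-04) and -0.67 ± 0.13 (adjusted p = 4.58e-04), below 4-fold. The member region with the highest CPM, chr4:145235913-145236496 in an intron 10666 bp after the start, held 122 and 132 CPM in BALB/c iNKT1, 102 and 131 in SKG iNKT1, 82.8, 69.4 and 76.6 in BALB/c iNKT2, and 78.4, 61.9 and 65.7 in SKG iNKT2. It too was lower in every iNKT2 library, with log2 changes of -0.74 ± 0.14 (adjusted p = 3.67e-04) and -0.76 ± 0.14 (adjusted p = 4.38e-04).

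Among the lower calls, the intron region chr4:145230672-145231005 held 6.27 and 7.58 CPM in BALB/c iNKT1, 6.94 and 7.31 in SKG iNKT1, 0.565, 0.45 and 0.618 in BALB/c iNKT2, and 0.862, 0.23 and 0.944 in SKG iNKT2. All iNKT2 libraries were below 1 CPM and all iNKT1 libraries above 6. The changes were -3.67 ± 0.33 (adjusted p = 2.89e-07) and -3.39 ± 0.35 (adjusted p = 1.18e-06). The region chr4:145274840-145275414, 28257 bp upstream in an intron of Tnfrsf8, the gene of CD30, held 27.4 and 34.6 CPM in BALB/c iNKT1, 23.1 and 24.2 in SKG iNKT1, 6.21, 3.17 and 5.4 in BALB/c iNKT2, and 3.3, 0.964 and 1.55 in SKG iNKT2. Its changes were -2.66 ± 0.32 (adjusted p = 3.80e-06) and -3.52 ± 0.35 (adjusted p = 8.52e-07), again without overlap of the subsets. A region 19851 bp upstream, chr4:145266547-145266895, went the other way with 2.18 and 2.51 CPM in BALB/c iNKT1, 1.28 and 1.73 in SKG iNKT1, 5.96, 7.72 and 5.61 in BALB/c iNKT2, and 9.72, 11 and 13.8 in SKG iNKT2. It rose in iNKT2 by 1.46 ± 0.24 (adjusted p = 8.05e-05) in BALB/c and by 2.92 ± 0.27 (adjusted p = 5.24e-07) in SKG, where it was called.

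CD27 marks both sorted subsets, so its protein did not separate them. The Cd27 promoter at chr6:125236565-125237233 held 24 and 21.6 CPM in BALB/c iNKT1, 20.04 and 24.1 in SKG iNKT1, 12.2, 8.54 and 8.37 in BALB/c iNKT2, and 17.2, 11.1 and 11.7 in SKG iNKT2. Every iNKT1 library was above every iNKT2 library. The change was -1.23 ± 0.21 (adjusted p = 1.09e-04) in BALB/c and -0.72 ± 0.21 (adjusted p = 0.0108) in SKG, the latter not past the threshold. The region with the highest CPM at this locus, 21282 bp from the Cd27 start, is the promoter of Vamp1, with 74 and 71.5 CPM in BALB/c iNKT1, 76.3 and 80.9 in SKG iNKT1, 42.1, 49.2 and 47.2 in BALB/c iNKT2, and 48.9, 53.6 and 56 in SKG iNKT2, lower in each iNKT2 library than in any iNKT1 library. Of 30 regions, 1 was called higher and 1 lower in BALB/c, and 2 higher and 1 lower in SKG. Over all regions 15.5% were higher and 6.36% lower in BALB/c, and 10.2% and 6.96% in SKG.

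The higher call shared by the genotypes was chr6:125259905-125260485, 23185 bp upstream of Cd27, with 0.747 and 0.705 CPM in BALB/c iNKT1, 0.193 and 0.257 in SKG iNKT1, 4.86, 6.16 and 3.79 in BALB/c iNKT2, and 4.64, 2.76 and 2.76 in SKG iNKT2. Every iNKT1 library was below 1 CPM and every iNKT2 library above 2. The changes were 2.76 ± 0.34 (adjusted p = 5.12e-06) in BALB/c and 3.91 ± 0.47 (adjusted p = 5.95e-06) in SKG. The shared lower call was chr6:125276639-125277254, 39936 bp upstream, inside 4930417O13Rik and nearer to the start of Tuba3a, with 21.6 and 20.2 CPM in BALB/c iNKT1, 21 and 18.5 in SKG iNKT1, 3.58, 2.25 and 2.1 in BALB/c iNKT2, and 1.78, 1.42 and 1.82 in SKG iNKT2. The iNKT1 libraries were near 20 CPM and the iNKT2 libraries at most 3.58. The changes were -2.98 ± 0.21 (adjusted p = 3.68e-08) and -3.56 ± 0.23 (adjusted p = 2.33e-08). The second higher call in SKG, 30626 bp upstream, had a change of 2.47 ± 0.68 (adjusted p = 0.00686). It was lost under 11 of the alternatives, among them the omission of SKG iNKT1 replicate 1 (log2 2.48, adjusted p = 0.052) or 2 (2.48, 0.049), BALB/c iNKT2 replicate 2 (2.46, 0.010) or 3 (2.46, 0.011), and SKG iNKT2 replicate 1 (1.95, 0.034) or 3 (2.52, 0.012).

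Among the ligands, Tnfsf11, which encodes RANKL, was the only locus whose 12 regions all had a higher estimate in iNKT2, in both genotypes. This held with library totals, while quantile normalization gave 10 higher and 2 lower in each genotype and DESeq2, GC trend removal and floor subtraction gave 11 and 1 in SKG. The promoter at chr14:78307717-78308337 held 4.09 and 4.63 CPM in BALB/c iNKT1, 2.18 and 3.72 in SKG iNKT1, 13.3, 13.8 and 15.1 in BALB/c iNKT2, and 7.52, 9.37 and 10.9 in SKG iNKT2. The iNKT2 libraries were all above the iNKT1 libraries, with BALB/c iNKT2 highest and SKG iNKT1 lowest. The change was 1.69 ± 0.23 (adjusted p = 1.26e-05) in BALB/c and 1.64 ± 0.25 (adjusted p = 5.88e-05) in SKG, under 4-fold. The highest levels stood 826 bp inside the gene, with 12.6 and 10.01 CPM in BALB/c iNKT1, 7.71 and 9.49 in SKG iNKT1, 21.5, 23.8 and 27.3 in BALB/c iNKT2, and 16.4, 22.6 and 23.9 in SKG iNKT2. This region rose by 1.09 ± 0.19 (adjusted p = 1.68e-04) and 1.28 ± 0.20 (adjusted p = 9.35e-05), also without overlap of the subsets.

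Regions upstream of Tnfsf11 passed the fold limit. At chr14:78320258-78320824, 12498 bp upstream, the levels were 1.52 and 1.63 CPM in BALB/c iNKT1, 0.707 and 1.22 in SKG iNKT1, 6.78, 9.76 and 8.7 in BALB/c iNKT2, and 3.8, 7.03 and 5.8 in SKG iNKT2. The 4 iNKT1 libraries were all below 2 CPM, and the iNKT2 libraries were above 3. The changes were 2.42 ± 0.30 (adjusted p = 5.79e-06) and 2.51 ± 0.35 (adjusted p = 2.70e-05). A neighbour 11691 bp upstream was called in both genotypes, with 2.32 ± 0.36 (adjusted p = 5.46e-05) and 2.11 ± 0.48 (adjusted p = 0.00171). A neighbour 13605 bp upstream was called in SKG, with 2.29 ± 0.60 (adjusted p = 0.00501). Each of these calls in SKG was lost under 6 alternatives. The first was lost without SKG iNKT1 replicate 1 (log2 2.11, adjusted p = 0.019) or 2 (2.11, 0.018) or SKG iNKT2 replicate 2 (1.89, 0.0061). The second was lost without SKG iNKT1 replicate 1 (1.57, 0.076) or SKG iNKT2 replicate 2 (2.03, 0.017). The farthest region, chr14:78351567-78351878 at 43679 bp upstream, held 0 and 0.0441 CPM in BALB/c iNKT1, 0.0642 and 0 in SKG iNKT1, 1.69, 2.25 and 1.57 in BALB/c iNKT2, and 0.416, 0.138 and 0.202 in SKG iNKT2. BALB/c iNKT1 held 1 insertion over its libraries and BALB/c iNKT2 held 177, a ratio of 106 with an exact 95% interval of 18.8 to 4203 that covers counting error only. The fitted log2 change was 6.33 ± 0.85 (adjusted p = 1.26e-05).

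Tnfsf8, which encodes the CD30 ligand, had a promoter at chr4:63861206-63861538 with 5.94 and 5.11 CPM in BALB/c iNKT1, 10.1 and 10.5 in SKG iNKT1, 5.11, 6.11 and 4.62 in BALB/c iNKT2, and 5.77, 7.49 and 5.6 in SKG iNKT2. SKG iNKT1 was the highest group and did not overlap the others, with -0.71 ± 0.20 (adjusted p = 0.00873) between subsets in SKG and 0.89 ± 0.22 (adjusted p = 0.03002), not past the threshold, between genotypes in iNKT1. The region with the highest mean, 1376 bp inside the gene, was also highest in the 2 SKG iNKT1 libraries, with 8.03 and 10.2 CPM in BALB/c iNKT1, 14.7 and 13.9 in SKG iNKT1, 5.83, 6.93 and 4.82 in BALB/c iNKT2, and 5.94, 7.9 and 4.25 in SKG iNKT2 and a subset change of -1.23 ± 0.24 (adjusted p = 4.73e-04) in SKG. The region chr4:63847174-63847542 in an intron held 8.09 and 7.23 CPM in BALB/c iNKT1, 12.3 and 12.5 in SKG iNKT1, 1.79, 1.24 and 0.66 in BALB/c iNKT2, and 1.46, 1.33 and 0.877 in SKG iNKT2. The subsets did not overlap. It was called lower in iNKT2 of both genotypes, with -2.61 ± 0.29 (adjusted p = 1.75e-06) and -3.29 ± 0.30 (adjusted p = 3.64e-07).

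A region 1875 bp upstream of Tnfsf8, chr4:63863043-63863402, went the other way and held 0.448 and 0.485 CPM in BALB/c iNKT1, 0.321 and 0.0642 in SKG iNKT1, 7.53, 5.11 and 4.08 in BALB/c iNKT2, and 1.87, 0.689 and 1.48 in SKG iNKT2. All iNKT1 libraries were below 0.5 CPM, SKG iNKT2 lay in between, and BALB/c iNKT2 was highest, with no overlap between these 3. The subset change was 3.58 ± 0.45 (adjusted p = 6.79e-06) in BALB/c and 2.80 ± 0.65 (adjusted p = 0.00213) in SKG. The SKG call was lost without SKG iNKT1 replicate 2 (log2 2.08, adjusted p = 0.043), with voom and with floor subtraction. A second intron region, 18995 bp inside the gene, held 2.9 and 4.32 CPM in BALB/c iNKT1, 6.3 and 5.71 in SKG iNKT1, 3.45, 1.53 and 1.11 in BALB/c iNKT2, and 0.773, 0.459 and 0.539 in SKG iNKT2. It was called lower in SKG iNKT2 than in SKG iNKT1, with -3.28 ± 0.42 (adjusted p = 1.20e-05). Its interaction of -2.48 ± 0.57 (adjusted p = 0.0252) was called by DESeq2 (adjusted p = 0.0028) and in the fit with a replicate block (0.0077).

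Cd40lg, which encodes CD40 ligand and lies on chromosome X, had a promoter at chrX:57211914-57212238 with 7.59 and 6.13 CPM in BALB/c iNKT1, 10.1 and 10.01 in SKG iNKT1, 6.65, 3.94 and 3.46 in BALB/c iNKT2, and 8.17, 2.53 and 2.23 in SKG iNKT2. The groups overlapped, SKG iNKT2 replicate 1 lay among the iNKT1 libraries, and no contrast passed. Without that library the change between SKG subsets went from -1.16 ± 0.41, adjusted p = 0.0294, to -2.07 (adjusted p = 1.91e-05), past both limits. Highest in mean level was chrX:57196133-57196698 at 15728 bp upstream, with 47.8 and 49.1 CPM in BALB/c iNKT1, 54.6 and 61.3 in SKG iNKT1, 37.8, 36.5 and 35.8 in BALB/c iNKT2, and 45.3, 45.3 and 47.9 in SKG iNKT2, and it was lower in BALB/c iNKT2, with a log2 change of -0.40 ± 0.12 (adjusted p = 0.00827). At chrX:57184841-57185182, 27132 bp upstream, the levels were 22.1 and 20.6 CPM in BALB/c iNKT1, 8.09 and 12.7 in SKG iNKT1, 2.79, 0.899 and 1.28 in BALB/c iNKT2, and 0.832, 0.184 and 0.202 in SKG iNKT2. All iNKT2 libraries were below 3 CPM and all iNKT1 libraries above 8. The changes were -3.69 ± 0.39 (adjusted p = 1.24e-06) and -4.44 ± 0.48 (adjusted p = 2.00e-06). At chrX:57238602-57239165, 26740 bp after the start in an intron of Arhgef6, the levels were 1.4 and 1.06 CPM in BALB/c iNKT1, 2.38 and 1.35 in SKG iNKT1, 10.7, 12 and 9.07 in BALB/c iNKT2, and 11, 9.92 and 9.98 in SKG iNKT2. This region was high in every iNKT2 library and called in both genotypes. The changes were 3.08 ± 0.26 (adjusted p = 1.36e-07) and 2.47 ± 0.26 (adjusted p = 1.81e-06). A region 34701 bp upstream was called higher in BALB/c iNKT2 only, with 3.02 ± 0.43 (adjusted p = 2.07e-05), and the difference of that change from the one in SKG was not called, at -2.06 ± 0.63 (adjusted p = 0.078).

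**Figure D2:**
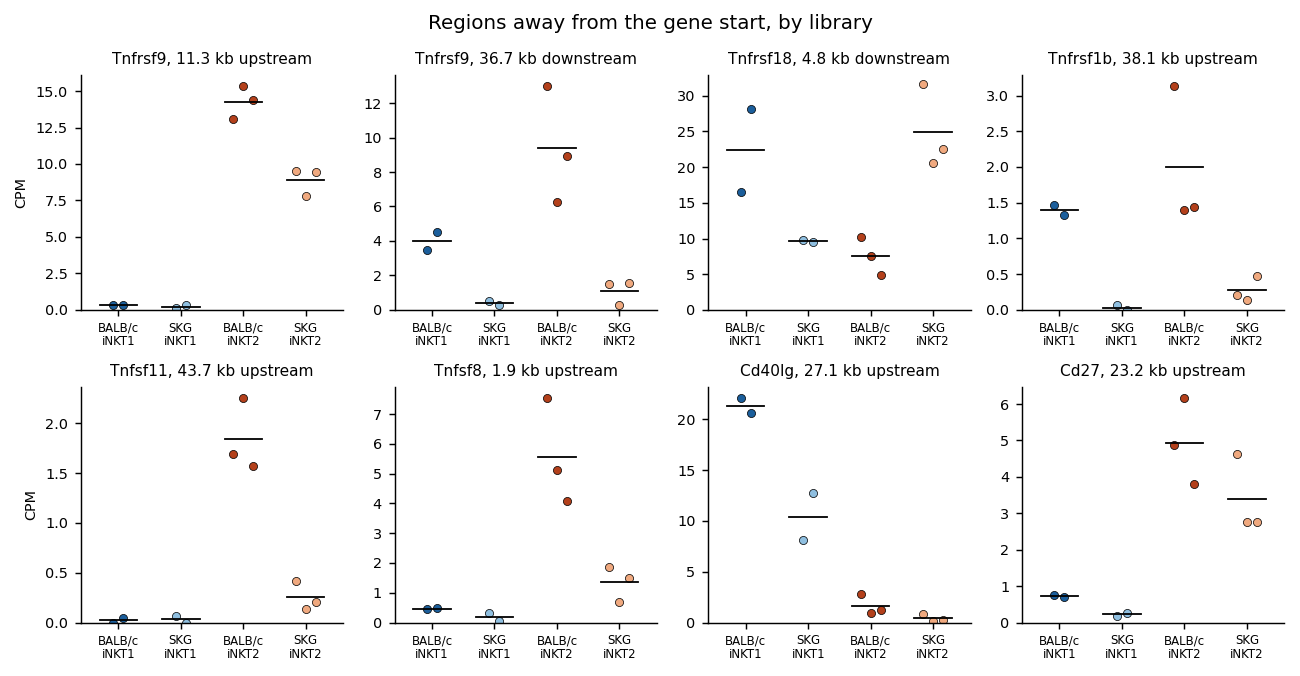
CPM of regions away from the members' starts are plotted for each of the 10 libraries, grouped by genotype and subset, on a linear axis. Regions high in iNKT2, such as the one 11262 bp upstream of Tnfrsf9, and regions low in iNKT2, such as the one 27132 bp upstream of Cd40lg, separate the subsets in both genotypes.

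Promoter levels can be compared between genes per kb of region. The median over 9916 promoter regions was 50.9 in BALB/c iNKT1, 52 in SKG iNKT1, 38.2 in BALB/c iNKT2 and 45.8 in SKG iNKT2 CPM per kb. The median was thus lower in iNKT2 of each genotype, the direction also taken by the promoters of Tnfrsf18, Tnfrsf9, Tnfrsf1b and Cd27. Tnfrsf4 had 1.88 in BALB/c iNKT1, 0.77 in SKG iNKT1, 25.4 in BALB/c iNKT2 and 21.4 in SKG iNKT2, and thus stood far under that median in iNKT1. Tnfrsf1b had 74.5 in BALB/c iNKT1, 78.7 in SKG iNKT1, 49.4 in BALB/c iNKT2 and 49.3 in SKG iNKT2, and was the only member above the median in every group. Tnfrsf9, whose region also serves Park7, had 61.8 in BALB/c iNKT1, 60.4 in SKG iNKT1, 38.1 in BALB/c iNKT2 and 46.7 in SKG iNKT2, which in BALB/c iNKT2 was about the median. Tnfrsf18 had 28.5 in BALB/c iNKT1, 31.9 in SKG iNKT1, 14.1 in BALB/c iNKT2 and 16.5 in SKG iNKT2. Cd27 had 34.1 in BALB/c iNKT1, 33 in SKG iNKT1, 14.5 in BALB/c iNKT2 and 19.9 in SKG iNKT2. The ligand promoters were below the median in every group. Tnfsf11 had 7.02 in BALB/c iNKT1, 4.75 in SKG iNKT1, 22.6 in BALB/c iNKT2 and 14.9 in SKG iNKT2. Tnfsf8 had 16.6 in BALB/c iNKT1, 30.9 in SKG iNKT1, 15.9 in BALB/c iNKT2 and 18.9 in SKG iNKT2. Cd40lg had 21.1 in BALB/c iNKT1, 30.9 in SKG iNKT1, 14.4 in BALB/c iNKT2 and 13.3 in SKG iNKT2.

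**Figure D3:**
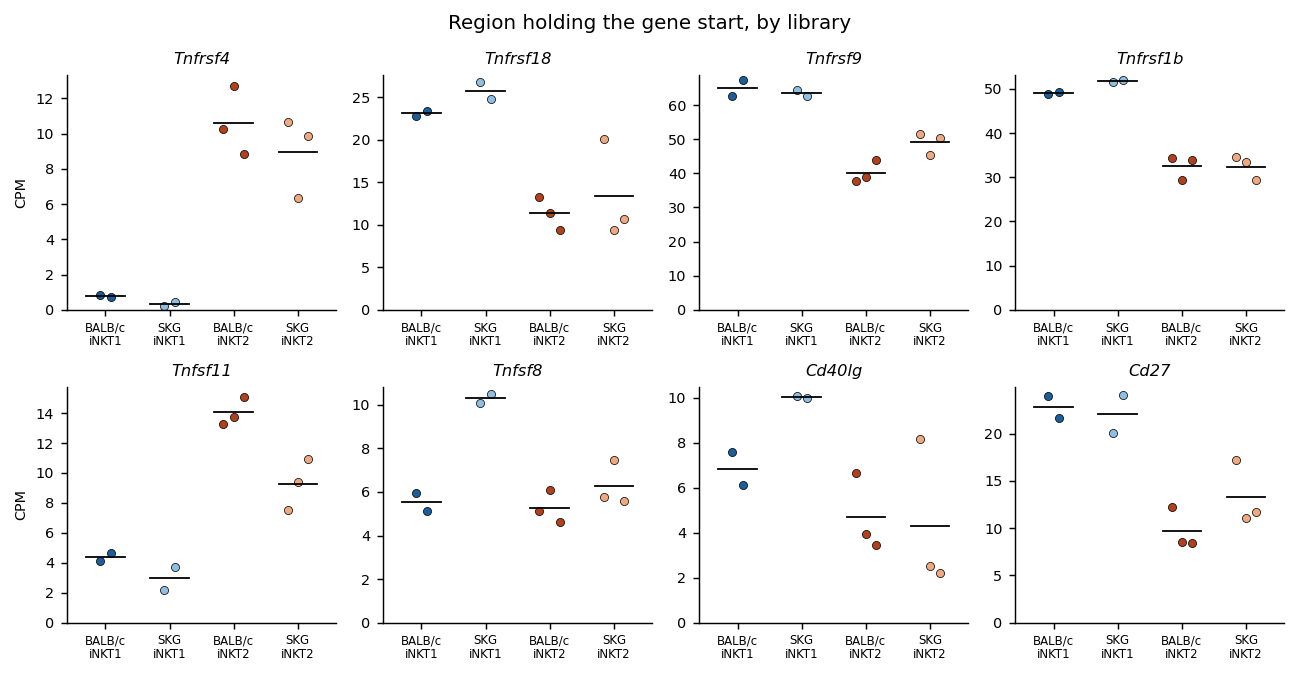
CPM of the promoter region of each member are plotted for each of the 10 libraries, grouped by genotype and subset. Tnfrsf4 and Tnfsf11 are higher in every iNKT2 library, Tnfrsf18, Tnfrsf9, Tnfrsf1b and Cd27 are lower, and the groups of Cd40lg overlap. The median over all promoter regions, not plotted, was lower in iNKT2 as well.

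The promoters most like each member's over the 10 libraries were listed by Pearson's r of log2(CPM + 1), as a description, since all libraries share the 2 subsets. For Tnfrsf4 they were led by Pou2af1 (r = 0.996) and Ttll9 (0.991), and 310 of 10847 promoters exceeded 0.9. For Tnfsf11 they included Pde7b (0.985) and Ifi27l2a (0.984), and 328 promoters exceeded 0.9. For Tnfrsf1b they were led by Snx8 (0.996) and Tnfrsf13c (0.994), with 961 above 0.9. For Cd40lg the closest was Il4 (0.945), with 22 above 0.9, and for Tnfsf8 it was Hist1h2be (0.894), with none above 0.9. The closest were Srp68 for Tnfrsf18 (0.983, with 716 above 0.9), Preb for Tnfrsf9 (0.993, with 2364) and Rasal3 for Cd27 (0.991, with 1574), so that many promoters shared these patterns.

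The second comparison asked what the Zap70 mutation changed within each subset. In iNKT1, 0 members were called higher and 3 lower (1.97%), against 0.281% and 0.732% of all regions. In iNKT2, 1 member was called higher (0.658%) and 4 lower (2.63%), against 0.252% and 4.73% of all regions. The median log2 change of the members was -0.12 in iNKT1 and -0.00 in iNKT2, against -0.03 and 0.01 over all regions, and scaling by library totals moved the latter to -0.12. The 0 higher calls in iNKT1 were from edgeR, where 34 members (22.4%) had an unadjusted p under 0.05 in either direction, against 17.1% of all regions, and DESeq2 and voom called 0 higher as well. The 3 lower calls in iNKT1 depended on the method. Voom with TMM and voom with quantile normalization called 0 members lower, and 276 and 129 of all 94823 regions. DESeq2 called 2 members lower, and 770 of all regions. Calls came from the loci of Tnfrsf9, Tnfrsf1b, Tnfsf11 and Tnfsf8, and none from those of Tnfrsf4, Tnfrsf18, Cd40lg and Cd27. These contrasts share libraries with the subset contrasts, so that their values stand side by side and are no second support.

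**Figure D4:**
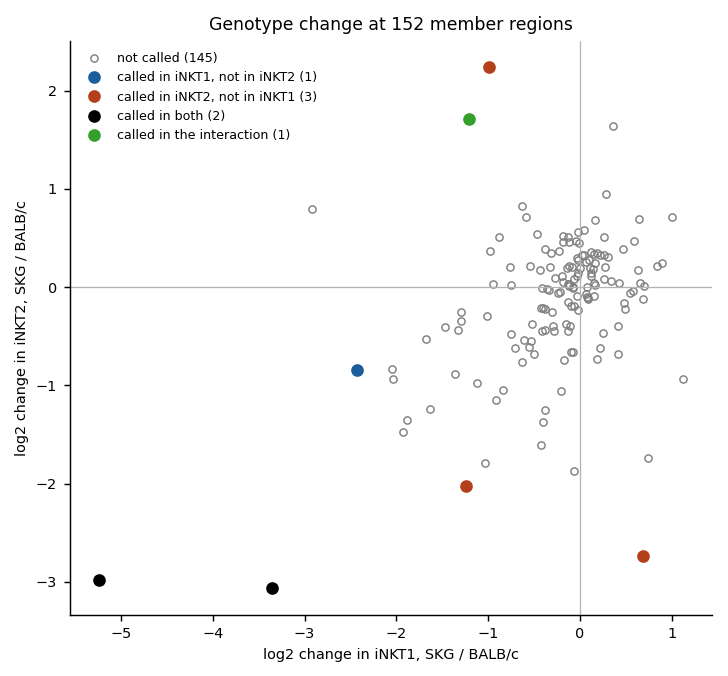
The log2 change from BALB/c to SKG in iNKT2 is plotted against that in iNKT1 for the 152 member regions. Called regions are coloured by contrast, with the regions called in both subsets in black. Most members lie near 0 on both axes, and the Tnfrsf18 3′ region stands apart with a negative value in iNKT1 and a positive value in iNKT2.

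At Tnfrsf9, the region chr4:150951025-150951535, 36718 bp after the start within an intron of Camta1 and with Tnfrsf9 as the nearest start, held 3.49 and 4.54 CPM in BALB/c iNKT1, 0.514 and 0.257 in SKG iNKT1, 13, 6.27 and 8.91 in BALB/c iNKT2, and 1.52, 0.276 and 1.55 in SKG iNKT2. The SKG libraries were below the BALB/c libraries of the same subset in each case. It was called lower in SKG in both subsets, with -3.36 ± 0.63 (adjusted p = 0.00525) in iNKT1 and -3.07 ± 0.40 (adjusted p = 5.49e-05) in iNKT2. The iNKT2 call held in every alternative. The iNKT1 call was lost without BALB/c iNKT1 replicate 1 (log2 -3.53, adjusted p = 0.031) or 2 (-3.17, 0.039), without SKG iNKT1 replicate 1 (-3.94, 0.060) or 2 (-2.95, 0.091), and without BALB/c iNKT2 replicate 3 (adjusted p = 0.012). It was also lost with library totals, voom and floor subtraction. Regions 6914 bp and 23499 bp after the start fell in SKG iNKT2 by less than 4-fold, with log2 changes of -1.60 ± 0.21 (adjusted p = 5.90e-05) and -1.15 ± 0.20 (adjusted p = 5.97e-04). The first held 13.8 and 11.7 CPM in BALB/c iNKT1, 6.55 and 12.4 in SKG iNKT1, 13.9, 12.7 and 15.9 in BALB/c iNKT2, and 5.11, 4.32 and 4.45 in SKG iNKT2, and its 3 SKG iNKT2 libraries were the lowest of the 10.

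At Tnfrsf1b, the region chr4:145284773-145285072, 38052 bp upstream and inside Tnfrsf8, whose start is nearer, held 1.46 and 1.32 CPM in BALB/c iNKT1, 0.0642 and 0 in SKG iNKT1, 3.14, 1.4 and 1.44 in BALB/c iNKT2, and 0.208, 0.138 and 0.472 in SKG iNKT2. In both subsets every SKG library lay below every BALB/c library. It was the other member region called lower in both subsets, with -5.24 ± 0.97 (adjusted p = 0.00478) in iNKT1 and -2.98 ± 0.50 (adjusted p = 4.63e-04) in iNKT2. The SKG iNKT1 libraries held 1 insertion together and the BALB/c ones 79, a ratio of 43.8 with an exact 95% interval of 7.64 to 1752. The iNKT1 call was lost without any 1 of the 4 iNKT1 libraries, with log2 -5.15 (adjusted p = 0.041) without BALB/c replicate 1, -5.31 (0.021) without BALB/c replicate 2, -8.20 (0.047) without SKG replicate 1 and -4.34 (0.074) without SKG replicate 2. DESeq2, voom and floor subtraction did not call it.

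The region chr4:145201473-145201802, 45233 bp after the Tnfrsf1b start and nearer to the start of Vps13d, held 3.37 and 4.32 CPM in BALB/c iNKT1, 0.45 and 0.962 in SKG iNKT1, 13, 18.4 and 18 in BALB/c iNKT2, and 7.13, 9.6 and 11 in SKG iNKT2. SKG was the lower genotype in both subsets, with -2.43 ± 0.38 (adjusted p = 0.00127) in iNKT1, called, and -0.85 ± 0.21 (adjusted p = 0.00787) in iNKT2, under 4-fold. It was also called higher in iNKT2 than in iNKT1 of both genotypes, with 2.11 ± 0.26 (adjusted p = 4.96e-06) and 3.69 ± 0.35 (adjusted p = 5.37e-07). The genotype call was lost without BALB/c iNKT1 replicate 2 (log2 -2.25, adjusted p = 0.014) or SKG iNKT1 replicate 1 (-1.99, 0.044) and with voom, and the BALB/c subset call fell under 4-fold without BALB/c iNKT1 replicate 1 (1.96).

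The only region called higher in SKG iNKT2 was chr4:145276911-145277234, 30202 bp upstream of Tnfrsf1b within Tnfrsf8, with 1.25 and 1.85 CPM in BALB/c iNKT1, 1.03 and 0.513 in SKG iNKT1, 0.314, 0.212 and 0.495 in BALB/c iNKT2, and 1.99, 1.7 and 0.877 in SKG iNKT2. All levels were at or below 2 CPM, and BALB/c iNKT2 was the lowest group. The genotype change in iNKT2 was 2.24 ± 0.44 (adjusted p = 0.00166) and the interaction was 3.23 ± 0.69 (adjusted p = 0.0166), called by DESeq2. The same region was called lower in iNKT2 than in iNKT1 of BALB/c, with -2.21 ± 0.47 (adjusted p = 7.90e-04), a call lost without BALB/c iNKT1 replicate 2 (log2 -1.92, adjusted p = 0.014) or BALB/c iNKT2 replicate 2 (-1.88, 0.0074), or after scaling by library totals. The genotype call was lost without BALB/c iNKT2 replicate 2 (log2 1.92, adjusted p = 0.015) or SKG iNKT2 replicate 1 (1.99, 0.0067).

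At the ligands, the region 43679 bp upstream of Tnfsf11 described above was called lower in SKG iNKT2, with -2.74 ± 0.49 (adjusted p = 8.10e-04), and this held in every alternative. Its 3 SKG iNKT2 libraries reached at most 0.416 CPM, where the BALB/c iNKT2 libraries held at least 1.57. All 12 regions of the locus had a lower estimate in SKG iNKT2, also with library totals and DESeq2, and 11 did after quantile normalization. The region 43679 bp upstream was the only call among them. The median log2 change over all regions was 0.01, and -0.12 with library totals, -0.03 with DESeq2 and 0.10 after quantile normalization. In iNKT1, 11 of the 12 had a lower estimate in SKG, and none was called. The region 1875 bp upstream of Tnfsf8 was called lower in SKG iNKT2 as well, with -2.02 ± 0.34 (adjusted p = 4.96e-04). It fell under 4-fold without BALB/c iNKT2 replicate 1 (log2 -1.75) or SKG iNKT2 replicate 2 (-1.71), and with the GC trend removed (-1.91). The second Tnfsf8 intron region was lower too, with a log2 change of -1.74 ± 0.41 (adjusted p = 0.00551), under 4-fold, and was called without BALB/c iNKT2 replicate 3 (log2 -2.07) or SKG iNKT2 replicate 1 (-2.05). At Cd40lg, the region 27132 bp upstream gave -1.79 ± 0.49 (adjusted p = 0.0145), and was called without SKG iNKT2 replicate 1 (log2 -3.08) or BALB/c iNKT2 replicate 2 (-2.18).

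Summing the CPM of all regions of a locus gave a value per library that includes regions at or inside other genes. The Tnfrsf4 sum holds the start of B3galt6 and Sdf4 and the strong region between Tnfrsf4 and Tnfrsf18. In BALB/c iNKT1 and iNKT2 that strong region averaged 97.8 and 61.4 CPM, and the Tnfrsf4 promoter 0.786 and 10.6. The Cd27 sum holds the starts of Vamp1, Tapbpl, Mrpl51 and Ncapd2. A sum is thus not the level of the member gene alone. Tnfsf11 summed to 28.8 and 25.6 CPM in BALB/c iNKT1, 16.9 and 22.9 in SKG iNKT1, 69.3, 72.7 and 75.2 in BALB/c iNKT2, and 39.3, 53.7 and 54.5 in SKG iNKT2. BALB/c iNKT2 was highest, followed by SKG iNKT2, BALB/c iNKT1 and SKG iNKT1, with no overlap between neighbours. Tnfsf8 summed to 38.3 and 40.7 CPM in BALB/c iNKT1, 60.00 and 60.6 in SKG iNKT1, 33.7, 29.8 and 23 in BALB/c iNKT2, and 24.5, 26.9 and 22.4 in SKG iNKT2. SKG iNKT1 was highest, then BALB/c iNKT1, and the 2 iNKT2 groups overlapped. With library totals BALB/c iNKT1 and BALB/c iNKT2 overlapped as well. Tnfrsf4 summed to 237 and 253 CPM in BALB/c iNKT1, 216 and 226 in SKG iNKT1, 185, 171 and 156 in BALB/c iNKT2, and 272, 199 and 216 in SKG iNKT2, with BALB/c iNKT2 lowest and SKG iNKT2 overlapping both iNKT1 groups, and the largest value in SKG iNKT2 replicate 1. With library totals SKG iNKT2 had the highest mean at Tnfrsf4, and BALB/c iNKT2 overlapped SKG iNKT1.

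The remaining loci had their highest means in BALB/c iNKT1, except that with library totals in place of TMM Cd40lg was highest in BALB/c iNKT2. Tnfrsf9 averaged 329 ± 13.3 CPM (SD) in BALB/c iNKT1, 276 ± 9.84 in SKG iNKT1, 213 ± 4.70 in BALB/c iNKT2 and 181 ± 21.9 in SKG iNKT2, with no overlap in this order, although SKG iNKT1 and BALB/c iNKT2 overlapped with library totals. Tnfrsf1b averaged 799 ± 12.8, 710.3 ± 64.8, 466 ± 27.4 and 450.2 ± 24.6 CPM in the same groups, and the iNKT2 groups overlapped. Cd27 averaged 482 ± 5.68, 464 ± 3.89, 301 ± 5.33 and 351 ± 16.6 CPM, so that SKG iNKT2 stood above BALB/c iNKT2 with no overlap, an order in which those 2 overlapped with library totals. Cd40lg averaged 211 ± 9.66, 209.9 ± 10.7, 182 ± 7.08 and 183 ± 12.0 CPM, and the genotypes overlapped in both subsets. Tnfrsf18, which shares 10 of its 13 regions with Tnfrsf4, averaged 267 ± 9.48, 244 ± 11.1, 177 ± 16.8 and 235 ± 40.2 CPM, and the 2 SKG groups overlapped. With library totals SKG iNKT2 came second at Tnfrsf18 and every pair of neighbours in the order overlapped.

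**Figure D5:**
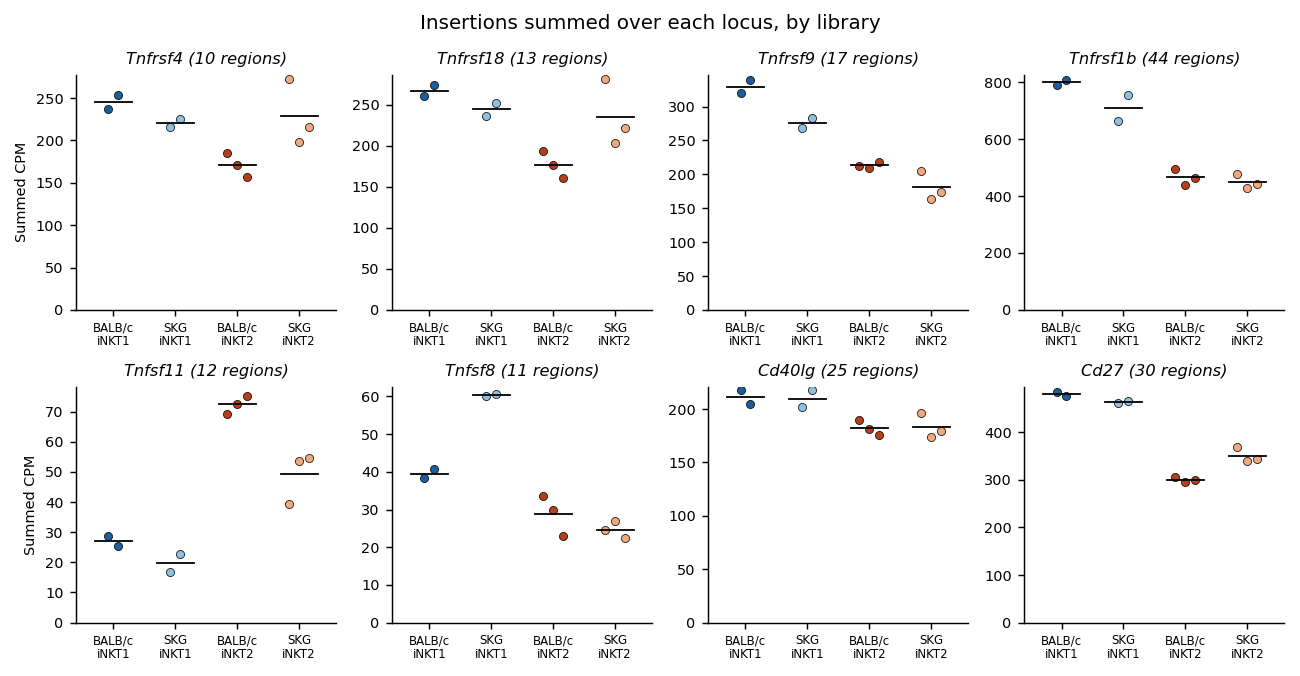
The summed CPM of all regions of each locus is plotted for each of the 10 libraries, grouped by genotype and subset, with the group mean. Tnfsf11 is the locus with higher sums in iNKT2, Tnfrsf9, Tnfrsf1b and Cd27 have lower sums there, and Tnfsf8 is highest in SKG iNKT1.

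Other genes of the pathway were counted by the same rule. For iNKT2 against iNKT1, all regions gave 15.5% higher and 6.36% lower in BALB/c, and 10.2% and 6.96% in SKG. For SKG against BALB/c, all regions gave 0.281% higher and 0.732% lower in iNKT1, and 0.252% and 4.73% in iNKT2. At 14 other receptor genes, with 174 regions of which 19 are also member regions, 12 were called higher and 9 lower in BALB/c iNKT2, 14 and 8 in SKG iNKT2, 1 and 2 in SKG iNKT1 against BALB/c, and 1 and 1 in SKG iNKT2 against BALB/c. At 13 other ligand genes with 133 regions the counts were 6 and 21, 4 and 18, 0 and 1, and 0 and 5. Fasl, which encodes the death ligand of FAS, had 9 of 25 regions lower and none higher in BALB/c iNKT2, and Tnfsf10, which encodes TRAIL, had 5 of 17 lower and none higher. At 9 genes of TRAF adapters, cIAP proteins and the kinase NIK, with 142 regions, the counts were 16 and 9, 7 and 6, 0 and 0, and 0 and 8. Traf5 had 6 of 26 regions higher in BALB/c iNKT2 and 5 lower in SKG iNKT2, and Traf6 had 4 of 9 and 3.

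Of the 15 members lower in BALB/c iNKT2, 60.0% held the Runx letters and 26.7% the T-box letters, where all regions so called held them in 56.8% and 17.8%. Of the 4 members lower in SKG iNKT2, 75.0% held the NFAT letters, against 47.0% of all regions so called and 31.3% of all regions. These shares are descriptions of small sets.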

How the data were processed

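The table deposited by the authors is named as normalized, but it held whole numbers whose totals differed between libraries, and these were treated as raw counts of transposase insertions. Its 94823 regions spanned 300 to 7709 bp (median 343). Per the study's methods, the authors aligned reads to mm10 with Bowtie 1.0, kept unique reads, removed mitochondrial and duplicate reads, called MACS2 summits on fragments under 100 nt, merged them over replicates and removed chromosome Y and blacklisted regions. Libraries held 14988590 to 36342635 insertions inside regions, and 0 columns belonged to other samples. No label states that replicates came from separate mice, so p-values measure the spread between these libraries, which may be technical.

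The fit used edgeR 4.0.16 (R 4.3.3), with TMM factors over all regions, 1 mean per group over 10 libraries, quasi-likelihood F tests of 5 contrasts, and Benjamini-Hochberg adjustment over all regions. Calls required an adjusted p under 0.01 and 4-fold, the study's limits; the standard errors derive from the F statistics. The script was tested on simulated counts. Genes and starts came from GENCODE M21 and sequences from the GRCm38 genome; coordinates are 1-based. Some named items and sequences are not reported here. CPM are counts scaled by the library total times its TMM factor.

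The members, lists, motifs and tests were chosen with earlier results of these data known. Named per locus were the promoter region, the region with the highest mean CPM, the called region of smallest p in each direction and contrast, regions called in the interaction, and regions called in the same direction in both genotype contrasts. All calls of a locus could be named where there were at most 5; the regions 9603 bp before Tnfrsf4 and 6914 and 23499 bp after Tnfrsf9, which are not calls, were added after their values were seen. Alternatives were DESeq2 1.42.0, voom in limma 3.58.1 with TMM or quantile normalization, library totals, a low-count filter (94770 regions kept), GC trend removal over 20 bins, subtraction of a floor per library (percentile 5), fits of only the groups compared, looser limits, windows of 20 and 100 kb, nearest starts, a replicate block and each library left out; in groups of 2 the spread of the remaining library was taken to be that of the other groups.

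Replicate numbers were checked by correlating the libraries' deviations from their group means over regions. In iNKT2, a BALB/c library and the SKG library with its number had r = 0.517, 0.181 or 0.224, each over 0.1, and these numbers were taken as pairs, from the data and not from a label. Differently numbered iNKT2 libraries gave -0.417 to 0.308, and 2 of these pairs exceeded the lowest value of a numbered pair, so the pairing by number is uncertain. Same-numbered iNKT1 libraries gave -0.00937, and same-numbered libraries of different subsets gave -0.0256 to 0.161.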

Additional observations from a re-analysis of the deposited data

Results flagged for a closer look

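The region beyond the end of Tnfrsf18 (chr4:156030577-156031389) was picked out because the test of the difference itself, the interaction of genotype and subset, was called: the genotype change in iNKT2 exceeded that in iNKT1 by 2.92 on the log2 scale (edgeR, adjusted p = 0.00142). SKG was the lower genotype in both iNKT1 libraries and the higher one in all 3 iNKT2 libraries.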

How the results depend on the processing

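Over 60 calls of a region in a contrast and 1139 comparisons with an alternative, 1067 calls held, 72 were lost with the same direction, none reversed, and 44 calls held in every alternative. With no fold limit, iNKT2 members were 22 higher and 58 lower in BALB/c and 22 and 44 in SKG, and members in SKG iNKT2 against BALB/c were 7 and 12; all regions gave 25.7% and 23.4%, 18.4% and 17.6%, and 4.02% and 10.1%. With an adjusted p under 0.05 and 2-fold these were 27 and 41, 25 and 35, and 3 and 16, with 1 and 9 between genotypes in iNKT1 and 3 and 1 in the interaction; all regions gave 26.7% and 16.0%, 21.6% and 15.02%, 2.29% and 12.2%, 1.34% and 2.91%, and 1.59% and 2.10%. A 20 kb window left 5 and 8 in BALB/c, 7 and 8 in SKG, 0 lower in SKG iNKT1, and 0 and 1 in SKG iNKT2. That window held fewer regions at every locus. Nearest starts gave 8 lower in each genotype and 1 lower in SKG iNKT1. Quantile normalization gave 23 lower in BALB/c iNKT2, 7 higher in SKG iNKT2 (voom with TMM 7 too), 0 lower in SKG iNKT1 (0 with TMM) and 2 higher between genotypes in iNKT2. Floor subtraction gave 1 lower in SKG iNKT1, and 2 higher each between genotypes in iNKT2 and in the interaction. DESeq2 gave 2 higher and 1 lower in the interaction, and 302 and 1090 over all regions, against 179 and 323 in the main fit. Higher calls of all regions between genotypes in iNKT2 were 1173 with quantile normalization and 1179 with floor subtraction, against 239 in the main fit. The replicate block was fitted over all libraries, with the same effect of a replicate number in both subsets. It gave 1 lower in the interaction (the second Tnfsf8 intron region) and lost the BALB/c subset call 45233 bp after Tnfrsf1b (log2 1.99). Between genotypes in iNKT2 it gave 1 higher and 4 lower, and no fit paired the iNKT2 libraries alone. The causes were not tested.

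Leaving out each library gave 10 to 11 higher and 14 to 16 lower members in BALB/c iNKT2, 8 to 11 and 14 to 21 in SKG iNKT2, 0 and 0 to 3 between genotypes in iNKT1, 0 to 1 and 3 to 7 in iNKT2, and 0 to 1 and 0 in the interaction. The lower calls in SKG iNKT1, 3 in all, were 1 without BALB/c replicate 1 or SKG replicate 2 and 0 without BALB/c replicate 2 or SKG replicate 1. Over all regions, the lower calls of that contrast fell as well without each of these iNKT1 libraries. Without SKG iNKT2 replicate 1, lower calls rose to 21 between SKG subsets and to 7 between genotypes in iNKT2. The lower calls of all regions rose as well, from 6599 to 7568 and from 4488 to 5243. The higher call in SKG iNKT2 was lost without SKG iNKT2 replicate 1 or BALB/c iNKT2 replicate 2. Each iNKT1 group had 2 libraries, and regions with few insertions had wide counting intervals.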
